A study of Mus musculus with 22 samples.

Results

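The 9 genes described here encode G-protein-coupled receptors through which hormones, nutrients and nerves act on insulin secretion by pancreatic beta cells: Glp1r, Gipr, Gcgr, Gpr119, Ffar1, Chrm3, Adra2a, Sstr3 and Galr1. They were chosen by gene symbol and are 9 of the 57010 gene rows of 1 expression table, and all 9 passed the filter on low values. The table holds polyadenylated RNA of isolated islets from 22 male mice aged 5.5 weeks, with 1 library per mouse. The mice were wild type (WT) or heterozygous (Het) for S64F, a change at residue 64 of MAFA, a transcription factor of mature beta cells that binds the insulin promoter. Each genotype was present on a background labelled C57 and on a background labelled Mixed, whose strains the labels do not give. There were 5 WT and 6 Het mice on C57, and 5 WT and 6 Het mice on Mixed. The labels name no treatment, transgene or Cre for any group.

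Receptors that couple to the G protein Gs raise cyclic AMP in the beta cell and amplify glucose-stimulated insulin release, and the gut hormones GLP-1 and GIP act in this way. Receptors that couple to Gq act through phospholipase C, inositol trisphosphate and protein kinase C, and they also enhance release. Receptors that couple to Gi lower cyclic AMP, can open inwardly rectifying potassium channels (GIRK), and restrain release.

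Promoter windows were taken from RefSeq (GRCm38.p6), and those of 7 of the 9 receptors were used. Windows on 1 chromosome were left out of the collection, and none was used for Gipr or Galr1. Windows are shown for 3 receptors whose RNA was lower in Het islets of both backgrounds. The other shown is that of Gpr119, whose RNA was higher in Het islets of the Mixed background. Each runs 5′ to 3′ on the gene's strand. The bases next to the RefSeq start that lie past a more upstream GENCODE start are not shown: 50 for Glp1r, 28 for Gcgr, 94 for Ffar1 and 0 for Gpr119. Capitals mark the letters TGCTGA, which open the MAF recognition element.
Glp1r: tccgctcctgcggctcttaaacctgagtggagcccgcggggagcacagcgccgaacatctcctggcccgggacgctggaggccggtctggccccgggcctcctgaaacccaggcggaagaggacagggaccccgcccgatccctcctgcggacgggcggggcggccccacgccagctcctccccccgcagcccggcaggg
Gcgr: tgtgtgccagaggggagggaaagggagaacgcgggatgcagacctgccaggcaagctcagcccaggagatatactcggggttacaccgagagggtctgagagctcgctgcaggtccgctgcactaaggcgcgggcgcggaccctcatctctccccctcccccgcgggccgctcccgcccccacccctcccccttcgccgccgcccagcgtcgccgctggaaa
Ffar1: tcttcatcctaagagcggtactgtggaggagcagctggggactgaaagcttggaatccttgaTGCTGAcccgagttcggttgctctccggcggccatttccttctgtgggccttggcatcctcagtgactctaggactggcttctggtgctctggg
Gpr119: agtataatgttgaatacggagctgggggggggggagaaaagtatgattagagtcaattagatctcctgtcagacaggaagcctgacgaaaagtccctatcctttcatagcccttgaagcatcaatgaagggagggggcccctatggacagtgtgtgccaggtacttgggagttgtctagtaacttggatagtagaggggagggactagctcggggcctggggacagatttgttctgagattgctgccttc
The Glp1r sequence lies at chr17:30901617-30901816 on the plus strand, and the Gcgr sequence at chr11:120530477-120530698 on the plus strand. The Ffar1 sequence lies at chr7:30861565-30861720 on the minus strand, and the Gpr119 sequence at chrX:48674479-48674728 on the minus strand. TGCTGA, searched with TCAGCA for the other strand in the 250 bases before each start, occurred in 1 of the 8 windows of these 7 receptors. That match was in Ffar1, 188 bases before the RefSeq start and so 94 bases before the end of the printed sequence, and 16.1% of all 32851 promoter windows held the letters. The cyclic AMP response element TGACGTCA occurred in 0 of the 8 windows and in 1.55% of all windows. These are matches of letters and not measurements of binding. Base composition differed among the receptors: G and C made up 73.2% of the 250 bases for Glp1r and 70.4% for Gcgr, against 56.4% for Ffar1 and 50.4% for Gpr119, with a median of 52.4% over all windows.

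Levels are given in TPM (transcripts scaled to a fixed total), which are scaled for gene length and so can be compared between genes. The depth of each library was unknown, and each library had 14812 to 16133 genes at or above 1 TPM. Changes are differences in log2(TPM + 1), a scale that understates the change of low genes, and adjusted p-values are from limma with Benjamini-Hochberg adjustment over the 16756 genes tested. A gene is said to have risen or fallen in Het islets where its adjusted p was under 0.05. Mafa itself was lower in Het islets, by a log2 change of -1.91 in C57 and -1.98 in Mixed, with no overlap of the groups. Summed TPM of 9 beta-cell markers had medians of 441600 in C57 WT, 353200 in C57 Het, 431900 in Mixed WT and 322800 in Mixed Het islets, and none was at 0 in all libraries. That sum is mostly Ins1 and Ins2, and single markers went both ways, such as G6pc2 (means of 2173 TPM in WT and 2783 in Het islets on C57) and Iapp (29410 and 35140 on Mixed). Summed alpha-cell markers (6 genes, none at 0 in all libraries) had medians of 41980, 88870, 18990 and 92340 in the same order. Acinar markers had medians of 279.5, 710.7, 439.3 and 844.6. On Mixed the medians of ductal (127.4 and 368.6), mesenchymal (45.2 and 122.5) and immune markers (28.3 and 53.3) were also higher in Het than in WT islets, and on C57 so was that of ductal markers (130.0 and 182.3). With an acinar score as a covariate in an alternative fit, the fall of Adra2a on C57 (-0.27, limma adjusted p = 0.246) did not pass. Nor did that of Chrm3 on Mixed (-0.26, adjusted p = 0.10). Of all genes, 3314 passed on C57 with that covariate and 5630 on Mixed, against 6362 and 7395 without it. The part of the alpha, ductal, mesenchymal and immune cells in the receptor values was not tested. In bulk islet RNA, fewer cells of a type and less RNA per cell cannot be told apart. Libraries are numbered group by group, so an effect of their order and of the group cannot be told apart either.

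The first comparison asked how receptor RNA differed between Het and WT islets within each background. On C57, 6 of the 9 receptors differed (Glp1r, Gipr, Gcgr, Ffar1, Adra2a and Sstr3), where 38.0% of all genes did. All 6 fell, where 11.6% of all genes fell and 26.4% rose. On Mixed, 8 differed, where 44.1% of all genes did. There 7 fell (Glp1r, Gipr, Gcgr, Ffar1, Galr1, Adra2a and Chrm3), where 13.5% of all genes fell, and Gpr119 rose, where 30.7% did. The WT and Het libraries did not overlap for 4 receptors in C57, where this held for 21.0% of all genes. In Mixed they did not overlap for 7 receptors, beside 23.6% of all genes. The median change of the 9 receptors was -0.37 in C57 and -0.84 in Mixed, beside medians over all genes of 0.08 and 0.10. The split of all genes depended on scaling: 4422 rose and 1940 fell in C57 as deposited, against 3521 and 3063 after median-of-ratios scaling, and 5137 and 2258 against 3582 and 3745 in Mixed, where the median over all genes moved from 0.10 to -0.01. With that scaling 7 receptors fell in C57, Galr1 being the addition, and 8 differed in Mixed.

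**Figure D1:**
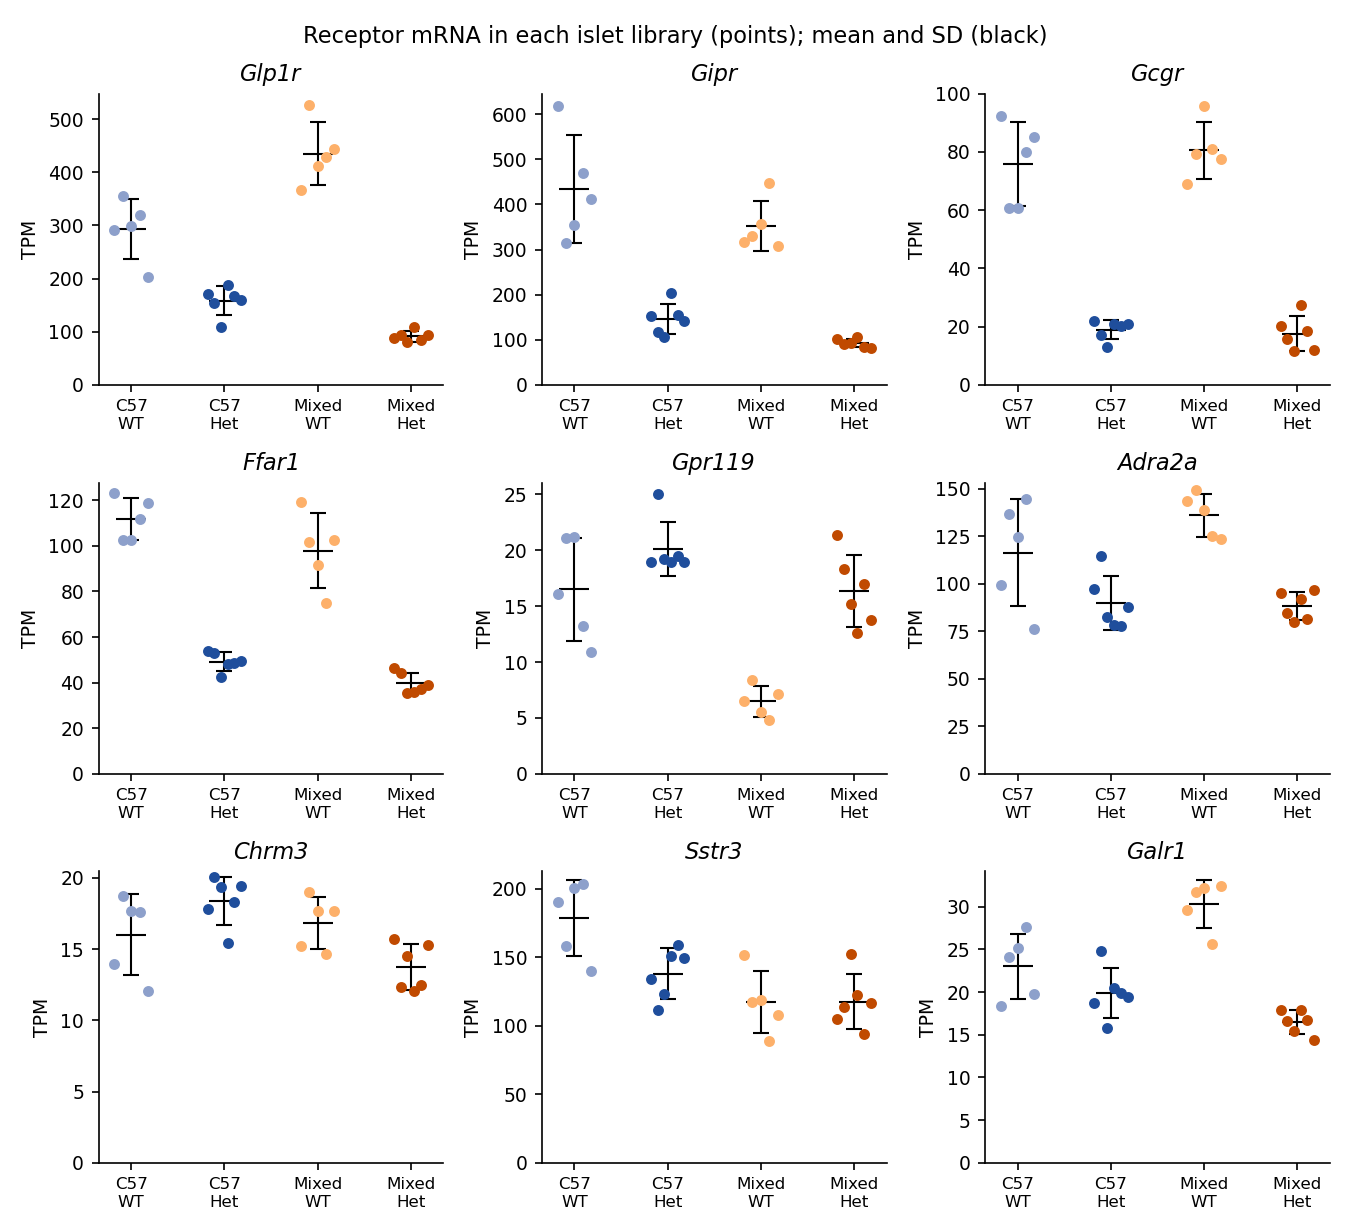
TPM of each of the 9 receptors (vertical axes, starting at 0) in every islet library (points) by group, with the group mean and SD in black. Het libraries lie below all WT libraries of their background for Glp1r, Gipr, Gcgr and Ffar1, and Gpr119 is lowest in Mixed WT islets, at 4.82 to 8.40 TPM.

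Glp1r encodes the receptor for GLP-1, the hormone that incretin drugs mimic. In C57 WT islets its levels were 292, 355, 299.9, 321 and 203 TPM, and in C57 Het islets they ran from 108 to 188 with a median of 163. In Mixed WT islets the levels were 366, 526, 411, 430 and 444 TPM, and in Mixed Het islets they ran from 80.2 to 109 with a median of 90.6. Every Het library lay below every WT library of its background, the closest being C57 WT replicate 5. On C57 the change was -0.89 (SE 0.14, adjusted p = 4.62e-05), and on Mixed it was -2.24 (SE 0.14, adjusted p = 1.07e-10). The Het means were thus 53.7% and 21.0% of the WT means.

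Gipr encodes the receptor for the other incretin, GIP. The C57 WT levels were 619, 315, 354, 470 and 411 TPM, against a range of 107 to 203 and a median of 147 in C57 Het islets. Mixed WT islets held 317, 331, 357, 448 and 309 TPM, against 82.7 to 106 with a median of 91.6 in Mixed Het islets. No Het library reached the lowest WT library, although the C57 WT values spread widely (coefficient of variation 27.4%). On C57 the change of Gipr was -1.55 (SE 0.16, adjusted p = 2.76e-07), and on Mixed it was -1.90 (SE 0.16, adjusted p = 6.87e-09). Its Het means were 33.7% and 26.4% of the WT means.

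Gcgr encodes the glucagon receptor, a close relative of both incretin receptors, through which glucagon from alpha cells can act on beta cells. Its levels were 92.2, 60.8, 60.7, 80.1 and 85.0 TPM in C57 WT islets and 12.9 to 21.8, median 20.5, in C57 Het islets. In Mixed WT islets they were 68.8, 79.4, 95.9, 80.9 and 77.6 TPM, and in Mixed Het islets 11.7 to 27.3, median 17.2. The genotypes were well apart on both backgrounds, the highest Het library lying far below the lowest WT library. On C57 Gcgr had the most negative change of the 9 receptors, -1.94 (SE 0.18, adjusted p = 6.16e-08), and on Mixed it changed by -2.18 (SE 0.18, adjusted p = 5.93e-09). The Het means were 25.0% and 21.9% of WT, beside 26.5% and 25.4% for Mafa.

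Gpr119, a Gs-coupled receptor for lipid amides, moved differently. The C57 WT levels were 16.1, 21.1, 21.2, 13.2 and 10.9 TPM, and the C57 Het levels were 18.9 to 25.1 with a median of 19.1. Mixed WT islets held 6.55, 8.40, 5.48, 4.82 and 7.15 TPM, and Mixed Het islets 12.6 to 21.4 with a median of 16.1. The genotypes overlapped in C57, whereas in Mixed the WT libraries lay below all Het libraries, and below all C57 libraries too. Gpr119 rose by 1.21 (SE 0.16, adjusted p = 3.49e-06) in Mixed, to a Het mean 252% of the WT mean. In C57 the change was 0.31 (SE 0.16, 95% confidence interval -0.02 to 0.64, adjusted p = 0.135).

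Ffar1, also known as GPR40, senses long-chain fatty acids and couples to Gq. Its C57 WT levels were 123, 103, 103, 112 and 119 TPM, against 42.6 to 54.1 with a median of 48.9 in C57 Het islets. The Mixed WT levels were 119, 102, 91.5, 74.8 and 103 TPM, against 35.3 to 46.3 with a median of 38.2 in Mixed Het islets. The genotypes did not overlap on either background, and within the C57 groups Ffar1 had the smallest coefficients of variation of the 9 receptors (8.38% in WT and 8.35% in Het). Ffar1 changed by -1.17 on C57 (SE 0.10, adjusted p = 2.91e-08) and by -1.27 on Mixed (SE 0.10, adjusted p = 3.24e-09).

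Chrm3 encodes the M3 muscarinic receptor, the Gq-coupled receptor through which acetylcholine acts on beta cells. Its C57 WT levels were 13.96, 18.7, 17.7, 17.6 and 12.1 TPM, and its C57 Het levels 15.4 to 20.04 with a median of 18.8. In Mixed WT islets it stood at 15.2, 19.0, 17.7, 14.6 and 17.7 TPM, and in Mixed Het islets at 12.1 to 15.7 with a median of 13.5. The genotypes overlapped on both backgrounds. The change was 0.20 in C57 (SE 0.11, adjusted p = 0.139) and -0.28 in Mixed (SE 0.11, adjusted p = 0.0383). The Mixed call ended without Mixed WT replicate 2, 3 or 5 or Mixed Het replicate 2, 4 or 5 (adjusted p = 0.0732 to 0.0997), and over all alternatives its adjusted p was 0.00493 to 0.10. The highest was that with the acinar covariate. Chrm3 overlaps the noncoding gene Gm26861 in RefSeq, and the use of strand in counting is not given in the sources used here.

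Adra2a encodes the alpha-2A adrenergic receptor, through which adrenaline and noradrenaline inhibit insulin release. The C57 WT levels were 99.6, 137, 125, 145 and 76.2 TPM and the C57 Het levels 77.9 to 115, median 85.3. Mixed WT levels were 143, 149.6, 139, 125 and 124 TPM and Mixed Het levels 79.9 to 96.9, median 88.3. The C57 groups overlapped, with C57 WT replicates 1 and 5 inside or below the Het range, and the Mixed groups did not. Adra2a changed by -0.35 on C57 (SE 0.13, adjusted p = 0.0389) and by -0.62 on Mixed (SE 0.13, adjusted p = 0.000628). The C57 call ended without C57 WT replicate 2, 3 or 4 or C57 Het replicate 3, 4, 5 or 6 (adjusted p = 0.060 to 0.125), and its adjusted p ranged from 0.000148 to 0.246 over all alternatives. The highest was that with the acinar covariate.

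Sstr3 encodes a receptor for somatostatin, the inhibitory peptide of neighbouring delta cells. It stood at 191, 158, 201, 204 and 140 TPM in C57 WT islets, and at 111 to 159, median 142, in C57 Het islets. Mixed WT islets held 152, 118, 119, 89.1 and 108 TPM, and Mixed Het islets 94.1 to 153, median 116. The genotypes overlapped on both backgrounds. On C57 the change was -0.37 (SE 0.13, adjusted p = 0.0354). On Mixed it was 0.01 (SE 0.13, 95% confidence interval -0.27 to 0.29, adjusted p = 0.956), where its sign depended on scaling. Leaving out C57 WT replicate 1, 3 or 4 or C57 Het replicate 1, 2 or 3 ended the C57 call (adjusted p = 0.0558 to 0.0897), and over all alternatives its adjusted p was 0.00679 to 0.256.

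Galr1 encodes a Gi-coupled receptor for the neuropeptide galanin. Levels were 18.4, 24.1, 25.1, 27.6 and 19.8 TPM in C57 WT and 15.8 to 24.8, median 19.7, in C57 Het islets. They were 29.7, 31.7, 32.2, 25.6 and 32.5 TPM in Mixed WT and 14.4 to 17.95, median 16.7, in Mixed Het islets. The C57 groups overlapped and the Mixed groups did not. Galr1 fell by 0.84 (SE 0.11, adjusted p = 2.16e-06) in Mixed, to 54.4% of the WT mean. In C57 the change was -0.20 (SE 0.11, adjusted p = 0.143), which passed the test with 3 other scalings and with sample weights (adjusted p = 0.00249 to 0.0306, in a range of 0.00249 to 0.742 over all alternatives).

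**Figure D2:**
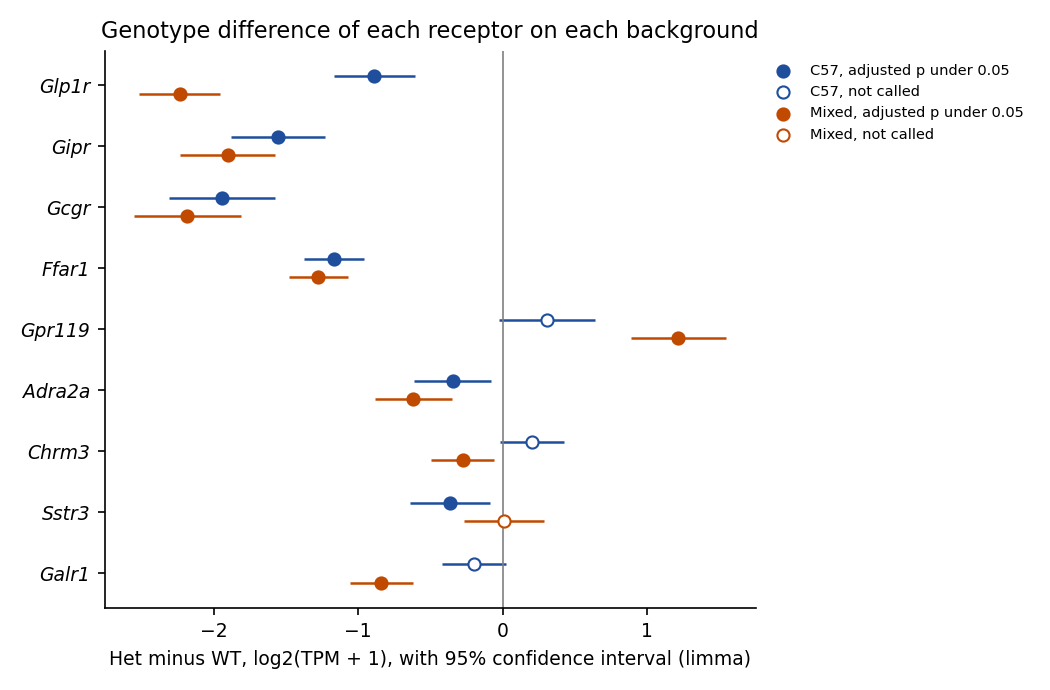
Het minus WT difference in log2(TPM + 1) for the 9 receptors with limma's 95% confidence interval, C57 and Mixed side by side, filled where the adjusted p was under 0.05. Glp1r (-0.89 and -2.24), Gpr119 (0.31 and 1.21) and Galr1 (-0.20 and -0.84) lie apart on the 2 backgrounds, and the sign of Sstr3 in Mixed (0.01) turned negative with other scalings.

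Whether the genotype difference itself depended on background was tested by the interaction, the Mixed difference minus the C57 difference. It passed for 3 of the 9 receptors, where 7.36% of all genes passed. Glp1r had an interaction of -1.35 (SE 0.19, adjusted p = 0.000512), Galr1 of -0.64 (SE 0.15, adjusted p = 0.0145) and Gpr119 of 0.91 (SE 0.225, adjusted p = 0.0207). For Chrm3 it was -0.48 (adjusted p = 0.0538). That value passed without C57 WT replicate 2, 3 or 4, C57 Het replicate 4, Mixed WT replicate 4 or Mixed Het replicate 1 or 3 (adjusted p = 0.0293 to 0.0497, in a range of 0.0293 to 0.709 over all alternatives). It also passed with median-of-ratios scaling, a total without the most abundant genes, a mean TPM of at least 5 and sample weights (adjusted p = 0.0367 to 0.0465). The interactions of Gipr, Gcgr and Ffar1 were -0.35 (95% confidence interval -0.81 to 0.11), -0.24 (-0.76 to 0.28) and -0.11 (-0.40 to 0.18), none past the threshold. Adra2a, at -0.27 (-0.65 to 0.11), and Sstr3, at 0.38 (-0.02 to 0.77), did not pass either. Of the incretin receptors, Glp1r thus differed between backgrounds in its response to genotype, and for Gipr no such difference was detected. Whether those interactions differed from each other was not tested.

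The same libraries were also compared between backgrounds within a genotype, which adds no independent evidence. Among WT islets 4 receptors differed between Mixed and C57, where 11.3% of all genes did. Glp1r was higher in Mixed by 0.58 (SE 0.14, adjusted p = 0.0103) and Galr1 by 0.39 (SE 0.11, adjusted p = 0.0232), whereas the difference was -1.204 (SE 0.17, adjusted p = 7.1e-05) for Gpr119 and -0.61 (SE 0.14, adjusted p = 0.00646) for Sstr3. The Galr1 call ended without C57 WT replicate 1 or 5 or Mixed WT replicate 2 or 3 (adjusted p = 0.0544 to 0.0714, in a range of 0.0112 to 0.0906 over all alternatives). Among Het islets 4 receptors differed, where 20.5% of all genes did. The Mixed minus C57 difference was -0.77 for Glp1r (SE 0.13, adjusted p = 0.000269), -0.62 for Gipr (SE 0.15, adjusted p = 0.00527), -0.40 for Chrm3 (SE 0.10, adjusted p = 0.00755) and -0.31 for Ffar1 (SE 0.09, adjusted p = 0.0228). Without C57 Het replicate 1 or Mixed Het replicate 5 the Ffar1 call ended (adjusted p = 0.0553 and 0.0527, in a range of 0.000698 to 0.886 over all alternatives). Galr1, at -0.25 (adjusted p = 0.0887), passed without C57 Het replicate 3, at -0.31 (adjusted p = 0.0344, in a range of 0.00494 to 0.72). Relative to the beta-cell markers, the calls of Gipr (-0.33, adjusted p = 0.162), Chrm3 (-0.11, adjusted p = 0.397) and Ffar1 (-0.02, adjusted p = 0.886) ended, the highest adjusted p of each over all alternatives. Glp1r was higher in Mixed than in C57 islets among WT mice and lower among Het mice.

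The order of the receptors by level differed between genotypes. In C57 WT islets the mean level was 434 TPM for Gipr, 294 for Glp1r, 179 for Sstr3, 116 for Adra2a, 112 for Ffar1, 75.8 for Gcgr, 23.0 for Galr1, 16.5 for Gpr119 and 16.0 for Chrm3. Among neighbours in that order, Ffar1 and Gcgr were separate in all libraries, as were Gcgr and Galr1, and the others overlapped. In Mixed WT islets Glp1r led at 435 ± 58.6 TPM (SD, n = 5), Gipr followed at 352 ± 56.5, and both lay above every library's level of Adra2a, the next at 136 ± 11.4. Gpr119 was last there, at 6.48 ± 1.40 TPM, separate from Chrm3 above it. In C57 Het islets Glp1r (158 ± 27.3 TPM, n = 6), Gipr (146 ± 33.8) and Sstr3 (138 ± 18.5) overlapped at the top. In Mixed Het islets Sstr3 led at 118 ± 19.9 TPM and was above Gipr (93.0 ± 9.25) within each of the 6 mice, although the ranges overlapped. Glp1r (91.5 ± 10.1) and Adra2a (88.3 ± 7.25) followed and overlapped. Gcgr, separate from Galr1 in both WT groups, overlapped it in both Het groups, with means of 19.0 and 17.6 TPM.

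By coupling, the 9 receptors summed to 1266 ± 158 TPM (SD, n = 5) in C57 WT, 659 ± 71.8 (n = 6) in C57 Het, 1273 ± 60.0 (n = 5) in Mixed WT and 494 ± 29.6 (n = 6) in Mixed Het islets. The 4 Gs-coupled receptors (Glp1r, Gipr, Gcgr and Gpr119) made up 64.6% ± 3.28 of that sum in C57 WT and 51.8% ± 3.87 in C57 Het islets. In Mixed islets their share was 68.6% ± 4.35 in WT and 44.2% ± 2.75 in Het. The 3 Gi-coupled receptors (Adra2a, Sstr3 and Galr1) held 25.2% in C57 WT, 37.9% in C57 Het, 22.3% in Mixed WT and 45.0% in Mixed Het islets. Their summed TPM was itself lower in Het islets, with means of 318 in WT and 248 in Het on C57, and 283.5 and 222.5 on Mixed. The Gq-coupled pair, Ffar1 and Chrm3, stayed between 6.92% and 12.1% in all libraries. Within a mouse, the level of Glp1r was 3.21 ± 0.443 times that of Adra2a in Mixed WT and 1.04 ± 0.0920 times in Mixed Het islets. In C57 islets that ratio was 2.56 ± 0.271 in WT and 1.80 ± 0.434 in Het. These shares and ratios are descriptions and carry no test.

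**Figure D3:**
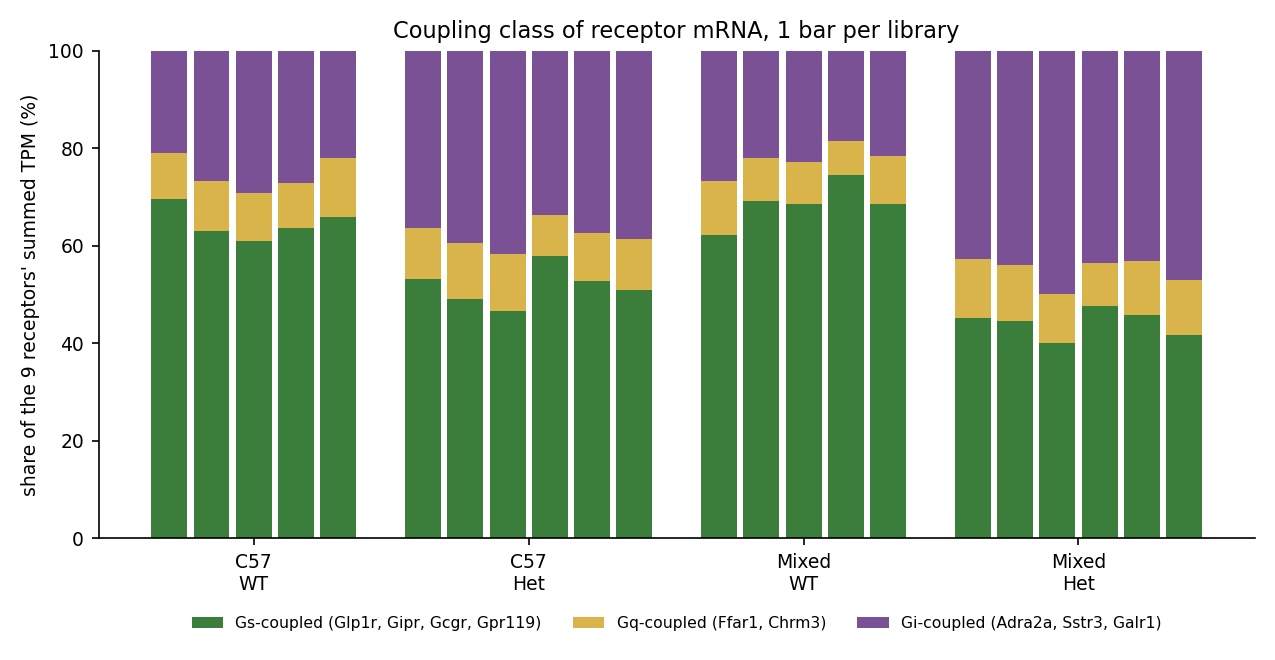
Share of the 9 receptors' summed TPM (vertical axis, percent) held by Gs-, Gq- and Gi-coupled receptors, with 1 bar per islet library. The Gs share is 61.0% to 74.5% in WT libraries and 40.1% to 57.9% in Het libraries.

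The receptors were also set against beta-cell markers, a comparison chosen after seeing the data. The mean log2(TPM + 1) of 8 beta-cell markers, Mafa left out, differed from WT to Het islets by -0.15 on C57 and -0.55 on Mixed. On this scale the median change over all genes was 0.24 on C57 and 0.66 on Mixed, with 6228 genes higher and 747 lower on C57 and 12453 and 382 on Mixed, against which the values below are to be read. Relative to it, Gcgr changed by -1.79 in C57 and -1.63 in Mixed, Gipr by -1.40 and -1.35, Glp1r by -0.74 and -1.68, and Ffar1 by -1.01 and -0.72, and each passed the test. Adra2a changed by -0.20 and -0.06 on this scale and passed on neither background. Gpr119 was higher in Het islets of both backgrounds, by 0.46 and 1.77, above the median of all genes on each. Chrm3 was also higher, by 0.35 and 0.28, its Mixed change having the opposite sign as deposited and lying under that median. Sstr3 changed by -0.21, which did not pass, and by 0.56, which did but also lay under the median. Galr1 passed in Mixed, at -0.29, and not in C57, at -0.05. The interaction still passed for Glp1r (-0.95) and Gpr119 (1.31), did not for Galr1 (-0.24), and passed for Sstr3 (0.78). These are to be read against a median interaction of 0.42 over all genes on this scale, with 6598 genes higher and 103 lower.

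Some libraries stood apart from their group in several receptors together. C57 WT replicate 5 was lowest of its group in Glp1r, Gpr119, Adra2a, Chrm3 and Sstr3, which lay 0.51, 0.52, 0.57, 0.36 and 0.33 log2 units under the group mean. Its summed endothelial markers were 707 TPM, against 276 to 463 in the other C57 WT libraries, and their part in these values was not tested. C57 Het replicate 3 was lowest of its group in Glp1r, Gipr and Gcgr, with deviations of -0.53, -0.42 and -0.50, and had the highest summed alpha-cell markers of the 22 libraries (117500 TPM). Mixed WT replicate 4 was lowest of its group in Ffar1, Gpr119, Chrm3, Sstr3 and Galr1, with deviations of -0.37, -0.34, -0.18, -0.37 and -0.23. It was also lowest in Mafa (-0.41) and highest in Gipr (0.36). Mixed Het replicate 3 had the highest Sstr3 of its group, with a deviation of 0.39, the lowest Gcgr (-0.49), and the lowest summed delta-cell markers (14670 TPM against 24230 to 32000). With group means removed, the pairs of receptors with the highest correlation were Adra2a and Chrm3 (Pearson r 0.714), Gipr and Gcgr (0.633), and Adra2a and Galr1 (0.627). The lowest was that of Gipr and Chrm3 (-0.527). Each is a description over 22 libraries, which share their scaling to a fixed total.

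For each receptor the genes with the most similar pattern over the 22 libraries were found by Pearson correlation of log2(TPM + 1), as a description, since these libraries share group, scaling and cell makeup. Glp1r was closest to Itpkb (r 0.967) and Srebf1 (0.958), and Gipr to Lrrc36 (0.984), Mlxipl (0.984) and Jakmip1 (0.980). With group means removed, Glp1r kept 0.675 with Srebf1, which encodes a lipogenic transcription factor, and Gipr kept 0.770 with Mlxipl, which encodes the glucose-responsive factor ChREBP. Over the 3 closest genes of each receptor, the value with group means removed ran from 0.199 (Glp1r with Kdm2b) to 0.842 (Gipr with Lrrc36). Gcgr was closest to Hspa12a (0.966), and Ffar1 to its gene neighbour Ffar3 (0.98) and to Adora1 (0.973). Gpr119 was closest to Resp18 (0.931), Adra2a to Tubb4b (0.924), Chrm3 to Wls (0.83) and Sstr3 to Il6ra (0.898). Galr1 was closest to St8sia1 (0.951), with Glp1r next (0.894).

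Subtypes and close homologues of the 9 receptors came to 21 genes, of which 11 passed the filter. On C57, 4 rose and 2 fell, and on Mixed, 5 rose and 2 fell, with medians of 0.12 and 0.27 beside 0.08 and 0.10 over all genes, of which 26.4% rose and 11.6% fell on C57 and 30.7% rose and 13.5% fell on Mixed. The genes that fell were Ffar2 and Ffar3 on both backgrounds, receptors for short-chain fatty acids that precede Ffar1 in the RefSeq gene order, Ffar3 being the adjacent gene. Ffar3 stood at 30.5 to 52.7 TPM in C57 WT, 10.8 to 14.8 in C57 Het, 27.2 to 38.6 in Mixed WT and 8.13 to 13.9 in Mixed Het islets, without overlap of genotypes. Ffar3 had a change of -1.61 on C57 (adjusted p = 3.39e-08) and of -1.47 on Mixed (adjusted p = 4.84e-08), and that of Ffar2 was -1.34 and -0.86. Ffar4, which like Ffar1 senses long-chain fatty acids, moved the other way. It rose by 0.74 on C57 (adjusted p = 0.00446) and by 1.63 on Mixed (adjusted p = 8.72e-07), and its interaction was 0.89 (adjusted p = 0.0481). That interaction passed in only 11 of 32 alternatives (adjusted p = 0.0028 to 0.105), and among the fits with a library left out it held only without C57 WT replicate 4 or 5, C57 Het replicate 4, Mixed WT replicate 2 or Mixed Het replicate 3. Sstr1 rose by 0.89 and 1.13 and Sstr2 by 0.93 and 1.87, where Sstr3 did not rise on either background. Sstr1 was at 0.98 TPM or less in every WT library and passed the filter through the Het libraries. Its rise is thus set by the groups that admitted it, and it is among the counts above. The levels of Sstr1 and Sstr2 were low, the mean of Sstr2 in Mixed Het islets being 11.5 TPM beside 118 for Sstr3. Summed delta-cell markers were also higher in Het islets, with medians of 7225 TPM in WT and 11400 in Het islets on C57, and 9185 in WT and 27520 in Het islets on Mixed. Mixed Het replicate 3 had the highest Sstr2 of its group (19.6 TPM) and the lowest summed delta-cell markers (14670 TPM). These values describe that library alone. The part of delta cells, and of the alpha cells given above, in the rises of these relatives was not tested. Galr3, at group means of 17.2 to 23.4 TPM, passed on neither background.

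**Figure D4:**
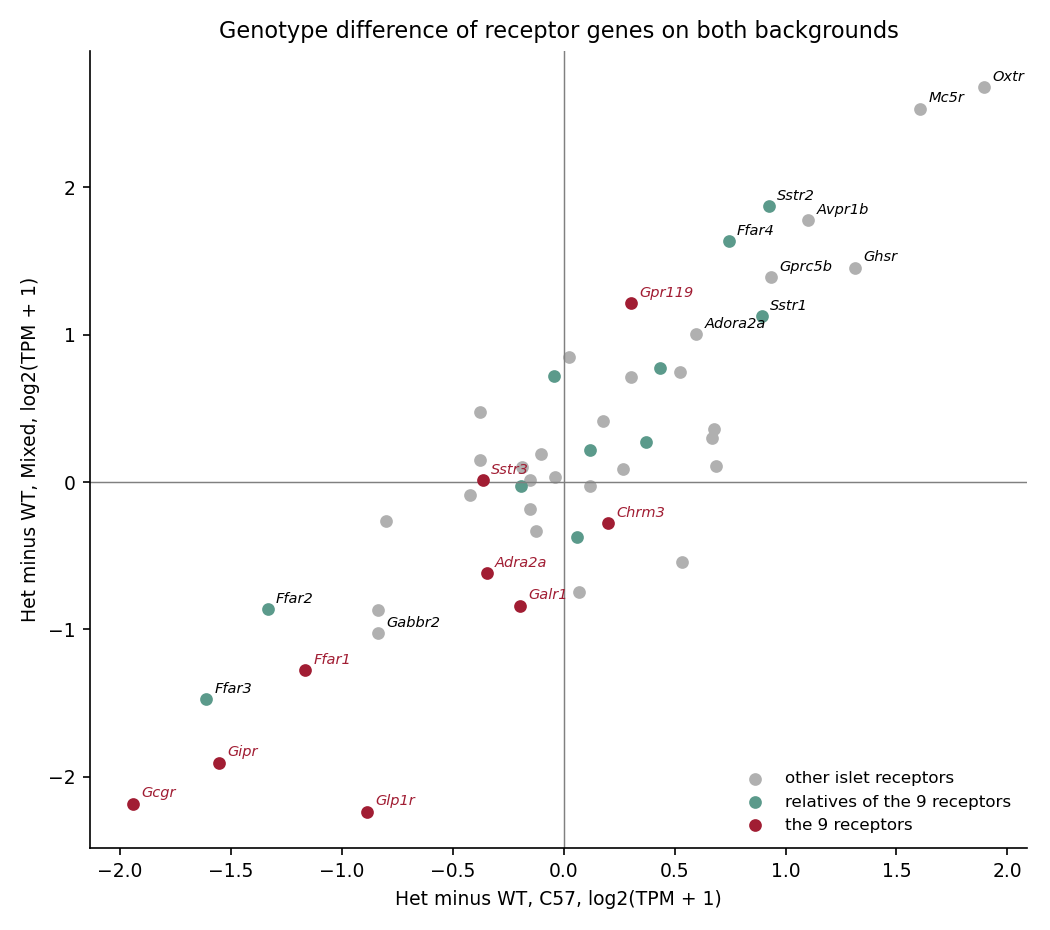
Het minus WT difference in log2(TPM + 1) on C57 (horizontal axis) and on Mixed (vertical axis) for the 9 receptors, their relatives and other islet receptors, with 1 point per gene that passed the filter. Gcgr, Gipr, Glp1r, Ffar1, Ffar3 and Ffar2 lie at the lower left and Oxtr (1.89 and 2.68) at the upper right, while the sign of Sstr3 in Mixed (0.01) changes with scaling.

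A further list of 40 islet receptors, of which 29 passed the filter, had 10 that rose and 4 that fell on C57 and 10 that rose and 3 that fell on Mixed, with medians of 0.12 and 0.15 beside the all-gene values given above. With quantile normalization these counts were 11 and 5 on C57 and 9 and 6 on Mixed, and relative to the beta-cell markers 12 and 3 and 21 and 2. Oxtr, the oxytocin receptor, went from 6.64 to 20.3 TPM in C57 WT to 38.4 to 57.7 in C57 Het islets, and from 6.87 to 13.1 in Mixed WT to 46.4 to 72.7 in Mixed Het islets. It rose by 1.89 (adjusted p = 4.7e-07) and 2.68 (adjusted p = 2.09e-09). Mc5r, a melanocortin receptor, rose by 1.61 and 2.53, from WT means of 0.145 and 0.348 TPM to Het means of 2.64 and 7.73. It passed the filter through the Het libraries, so its rise is set by the groups that admitted it, and it is among the counts above. Gabbr2, a subunit of the GABA-B receptor, changed by -0.84 and -1.03, and Adora1, an adenosine receptor, by -0.84 and -0.87. The interaction passed for Gpr158 (-0.82, adjusted p = 0.021, in 31 of 32 alternatives) and for Crhr1 (-1.07, adjusted p = 0.0456, in 12 of 31). The falls of Glp1r, Gipr and Gcgr were thus not shared by all receptors measured in these islets.

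Genes that carry the signals of the receptors were counted next, to be read against the 26.4% of all genes that rose and the 11.6% that fell on C57, and 30.7% and 13.5% on Mixed. Of 28 genes of Gs and cyclic AMP signalling, 26 were tested: 14 rose and 1 fell on C57, and 10 rose and 3 fell on Mixed. After median-of-ratios scaling these counts were 11 and 1, and 8 and 5. Gnas, which encodes the Gs alpha subunit, went from 228 to 318 TPM in C57 WT to 346 to 437 in C57 Het islets, and from 226 to 302 in Mixed WT to 437 to 679.5 in Mixed Het islets. Gnas rose by 0.54 on C57 (adjusted p = 0.000711) and by 1.13 on Mixed (adjusted p = 6.9e-08; interaction 0.59, adjusted p = 0.0248), while Glp1r and Gipr, which signal through it, fell. Adcy1, an adenylyl cyclase, rose by 0.85 and 1.67 from low levels, and Crem, a cyclic AMP-responsive transcription factor, by 0.71 and 0.87. Prkar2b, a regulatory subunit of protein kinase A, changed by -0.35 and -0.74. Interactions also passed for Adcy7 (0.82) and Pde4b (-0.82), each in 31 alternatives. Those of Adcy1 (0.82, in 18 of 31 alternatives), Pde3b (-0.57, in 17 of 32) and Rapgef4 (-0.37, in 14 of 32) often did not hold, and that of Rapgef4 changed sign relative to the beta-cell markers (0.03). Adcy1 (WT means of 1.04 and 0.421 TPM) and Adcy7 (0.908 and 0.805) passed the filter through the Het libraries. Their changes and interactions are thus set by the groups that admitted them, and both are among the counts above. The same holds for the rises of Pde8b (WT means of 0.528 and 0.524 TPM).

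All 18 genes of Gq and phospholipase C signalling passed the filter, with 7 that rose and 1 that fell on C57 and 7 that rose and 2 that fell on Mixed. The counts were 6 and 3, and 7 and 5, after median-of-ratios scaling. Gna14 (WT means of 0.432 and 0.478 TPM) is among those that rose and passed the filter through the Het libraries. Its rise is thus set by the groups that admitted it. Itpr1, an inositol trisphosphate receptor, rose by 1.07 and 1.197. Itpr2, another, changed by -0.68 in C57 and had an interaction of 0.57 (adjusted p = 0.0248). Of the 6 interactions that passed in this list, that of Marcks was also positive (0.51), and those of Prkca (-0.62), Prkcb (-0.62), Prkd1 (-0.56) and Prkce (-0.39) were negative. Prkca, Prkce and Prkd1 held in 21, 22 and 16 of 32 alternatives, and that of Prkce changed sign relative to the beta-cell markers (0.01). Prkd1 changed by -0.68 and Prkcb by -0.45 in Mixed. Of 15 genes of Gi/o proteins and GIRK channels, 14 were tested, with 7 that rose and 1 that fell on C57 and 6 and 2 on Mixed, against 7 and 1 and 5 and 4 after that scaling. Gnai1, a Gi alpha subunit, rose by 0.67 and 1.13, and the GIRK channel genes Kcnj3 and Kcnj6 by 0.75 and 0.86 in C57 and by 0.83 and 0.86 in Mixed. Kcnj5, another GIRK gene, was at 6.79 to 18.2 TPM in Mixed WT islets, through which it passed the filter, and stood at 0.292 TPM or less in every C57 library. In Mixed Het islets it ran from 0.0653 to 9.34 TPM with a median of 0.352, the highest value being that of replicate 3. Its change in Mixed (-2.77) and its interaction (-2.94) are set by the group that admitted it, and without it 13 genes were tested, with 6 that rose and 1 that fell on Mixed. Interactions also passed for Gnai3 (-0.81, in 31 of 32 alternatives) and Gnb2 (0.36, in 8 of 32). Of 16 receptor kinases, arrestins and accessory proteins, 15 were tested, with 2 that rose and 3 that fell on C57 and 3 and 2 on Mixed, against 1 and 3 and 3 and 3 after median-of-ratios scaling. Grk3, a receptor kinase, changed by -0.34 and -0.93, with an interaction of -0.60 (adjusted p = 0.0474). That interaction passed in only 13 of 32 alternatives and the C57 change in 22 of 33. Relative to the beta-cell markers, 23 Gs, 16 Gq, 13 Gi/o and 12 kinase and accessory genes were higher on Mixed and 0, 0, 1 and 0 lower, on a scale where 12453 of the 16756 genes were higher.

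Among 10 islet peptides, 8 passed the filter, and 3 rose on C57 and 5 on Mixed, with 0 that fell. Of all genes, 26.4% rose and 11.6% fell on C57, and 30.7% rose and 13.5% fell on Mixed. Median-of-ratios scaling gave the same counts for the peptides, and quantile normalization 4 and 0 on C57 and 5 and 1 on Mixed. With no filter on low values the C57 count was 1, the calls of Gcg (adjusted p = 0.201) and Sst (adjusted p = 0.124) having ended, the highest of their alternatives. They include ligands of the 9 receptors. Gcg, which encodes glucagon and GLP-1, rose by 1.37 (adjusted p = 0.000423) and 2.18 (adjusted p = 1.15e-06), whereas Gcgr and Glp1r fell. Sst, which encodes somatostatin, the ligand of Sstr3, rose by 0.67 (adjusted p = 0.0104) and 1.32 (adjusted p = 1.63e-05). Gal, which encodes galanin, the ligand of Galr1, rose by 1.25 and 1.48 from means of 0.801 and 0.991 TPM in WT islets. Gip, whose peptide activates Gipr, did not pass the filter. Gcg and Sst are themselves alpha- and delta-cell markers.

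**Figure D5:**
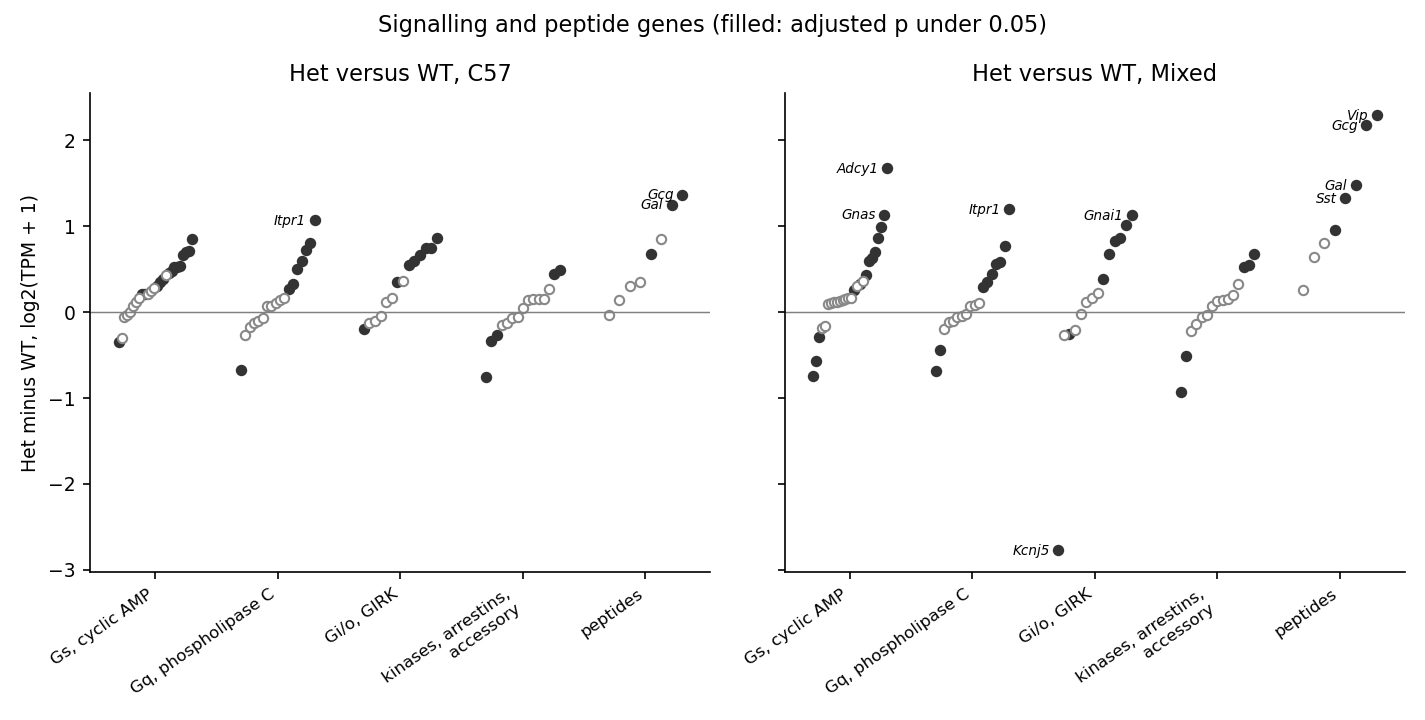
Het minus WT difference in log2(TPM + 1) of each gene tested in the signalling and peptide lists, C57 in 1 panel and Mixed in the other, filled where the adjusted p was under 0.05. Gcg (1.37 and 2.18) and Gnas (0.54 and 1.13) lie above 0 on both backgrounds, and the counts above and below 0 in the signalling lists shift with scaling.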

How the data were processed

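Islet RNA of 22 mice was measured by poly(A) RNA sequencing. The values are TPM in the table the authors deposited, per the file headers, with 1 column per mouse (22 distinct columns, each summing to 1000000). The submitters' processing notes name STAR 2.7.10b, MultiQC 1.7 and the build mm39, and the tool that made the TPM values is not given in the sources used here. TPM keeps no depth, so no count test was made and no counting interval is given. The filter kept the 16756 genes that reached 1 TPM in 5 or more libraries. limma 3.58.1 in R 4.3.3 was fitted to log2(TPM + 1) as 1 model of 4 group means with a trended variance, with Benjamini-Hochberg adjustment over all genes tested and a threshold of 0.05. The procedure was tested on simulated data. Nothing pairs the mice across groups. Alternatives covered pseudocount (0.1), filters, scalings, an acinar covariate, sample weights, a larger change (at least 1 on the log2 scale) and each library left out. The 9 receptors and the gene lists were chosen with earlier results of these data known. Named genes were the 9 receptors, Mafa, and 1 or more of the 3 most correlated genes of each receptor. From each list they were up to 3 genes with the largest passing change each way and those with a passing interaction. Relatives of the receptors and islet peptides were also given by level, and Pde8b and Gna14 were named for how they passed the filter. Gene names are those of the table. RefSeq promoter windows (GRCm38.p6) are from another build than the table, so no coordinates were joined to its values.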

Additional observations from a re-analysis of the deposited data

Results flagged for a closer look

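In the background-dependent results, the Het minus WT difference of a receptor itself differed between Mixed and C57 by the interaction test. This held for Glp1r, at -1.35, with a larger fall in Mixed, for Gpr119, at 0.91, with a rise in Mixed, and for Galr1, at -0.64, with a more negative difference in Mixed. Glp1r and Gpr119 passed in each of 32 alternatives (adjusted p = 3.61e-05 to 0.00208 and 0.000403 to 0.0451), and Galr1 in 31, the exception being relative to the beta-cell markers (adjusted p = 0.159). The 32 leave out the alternative that required a log2 change of at least 1, a size that only the interaction of Glp1r reached.

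C57 Het replicate 2 had a Gpr119 level of 25.05 TPM, far from the other 5 libraries of its group, which lay between 18.91 and 19.49. Its gap was 0.905 of the range of the group, over the 95% critical value of Dixon's test for 6 samples. Of 40 sets of values examined in this way (9 receptors and Mafa in 4 groups), about 1 in 20 is marked by chance.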

How the results depend on the processing

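On both backgrounds the falls of Glp1r, Gipr, Gcgr and Ffar1 passed in all 33 alternatives, as did the changes of Gpr119 and Galr1 in Mixed. The 33 leave out the alternative that required a log2 change of at least 1. Glp1r on C57 (-0.89) and Galr1 on Mixed (-0.84) did not reach that size. Over all receptors and comparisons, leaving out a library kept direction and side of the threshold in 948 values, lost 25 calls, gained 8 and turned 9. The other alternatives kept 433, lost 16, gained 18 and turned 19. With a log2 change of at least 1 also required, 3 receptors were called in C57, 5 in Mixed, 1 for the interaction, 1 between WT groups and 0 between Het groups. No share of all genes is given for these stricter counts. Between Het groups, where 4 were called, sample weights gave 7 and values relative to the beta-cell markers gave 2. Of all 16756 genes, 3428 were called between Het groups as deposited, 6572 with sample weights and 7821 relative to the beta-cell markers.

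Direction turned for Sstr3 in Mixed with median-of-ratios scaling (-0.12), rescaling without the most abundant genes (-0.11), quantile normalization (-0.13), an acinar covariate (-0.11) and sample weights (-0.0684), and ran from -0.0815 to 0.109 with a library left out. Mixed minus C57 in WT islets turned for Chrm3 with sample weights (-0.0191) and ran from -0.0115 to 0.137 with a library left out. In Het islets it turned for Adra2a with the acinar covariate (0.0031) and sample weights (0.0032) and ran from -0.0506 to 0.0592.

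Relative to the beta-cell markers, added after seeing the data, direction turned for Chrm3 in Mixed (0.28), for the interactions of Gipr (0.051), Gcgr (0.16), Ffar1 (0.29) and Adra2a (0.13), and between backgrounds for Gcgr (-0.0128 in WT, 0.15 in Het), Chrm3 in WT (-0.0334), and Adra2a (0.28), Sstr3 (0.0536) and Galr1 (0.0416) in Het. It also turned for Crtc2 (0.26), Gnai2 (0.29), Grk5 (0.0396) and Prkcb (0.11) in Mixed and for the interactions of Prkce (0.014) and Rapgef4 (0.0313). The cause was not tested, apart from the construction of the alternative, which takes a marker mean that was itself lower in Het islets from each value.

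All genes between Het groups split 2234 higher to 1194 lower as deposited and 1916 to 2010 with median-of-ratios scaling, and for the interaction 774 to 459 and 701 to 1081. A fit on the samples of the contrast alone was not run for the interaction, which uses all samples. No paired analysis was possible because the labels carry no replicate numbers and the numbers used here follow accession order. The unknown depth and the 5 or 6 mice in a group limit precision. The SE of a receptor's genotype change ran from 0.0987 for Ffar1 to 0.177 for Gcgr.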
